A study of Mus musculus with 89 samples.

Results

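This account describes 10 genes of matrix remodelling in mouse lung, measured across 26 groups of material, dose and allergen challenge. They were the inhibitors Timp1, Timp2 and Timp3 and the matrix metalloproteinases Mmp2, Mmp3, Mmp8, Mmp9, Mmp10, Mmp12 and Mmp14, 10 of the 22911 genes measured. The members were chosen by name, with earlier results of these same comparisons known, so the size and direction of each exposure effect on a member is given as a description without a p-value. The array carried 15 probes for them, and no member probe was saturated or marked as an outlier spot in any sample.

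Matrix metalloproteinases are zinc-dependent enzymes that cut collagens, elastin, proteoglycans and other proteins outside the cell. Most are secreted as inactive precursors and are switched on when a propeptide is removed. Tissue inhibitors of metalloproteinases, the TIMPs, bind the active site of these enzymes and block it, and in lung the balance of both families takes part in the passage of leukocytes, in airway remodelling and in scarring.

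The samples were lung RNA of female BALB/c mice aged 6 to 8 weeks. Every mouse, controls included, had been sensitised to ovalbumin with alum, so no group was free of that treatment. Mice were challenged with PBS or with ovalbumin (OVA), the second being a model of allergic airway inflammation, and each exposed group received nanosized copper oxide, either plain (CuO) or in 1 of 3 surface-modified forms named CuO PEG, CuO NH3 and CuO COOH, at 2.5, 10 or 40 μg per mouse on consecutive days by oropharyngeal aspiration. The methods describe challenge and material as given in the same aspirations. Lungs were taken 24 h after the last exposure. Each of the 89 samples was a pool of 2 RNA samples, so n counts pools and the spread between single mice was not measured. There were 7 PBS-challenged controls, 8 OVA-challenged controls, 4 samples each of CuO NH3 10 and CuO PEG 10, and 3 in each other exposed group, where a group such as CuO 40 + OVA is named by material, dose and, if given, OVA challenge.

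A level below is a quantile-normalized log2 intensity with the effects of dye, slide and position on the slide removed, and a fold change comes from a linear model with dye and array as terms. A gene was called when its Benjamini-Hochberg adjusted p over all genes was below 0.05 and its log2 fold change exceeded 0.58 in size. Samples had a median foreground brightness of 62 to 130 intensity units in the Cy3 dye and 70 to 203 in Cy5. CuO and CuO COOH were hybridised on slides 1 to 3 and CuO NH3 and CuO PEG on slides 4 to 6, and each control group was present on both sets of slides. A level and a fold change can differ because the model compares a pool with its partner on the same array. Levels with these effects removed can also be narrower within a group, as for Mmp8 in PBS-challenged controls, with an SD of 0.07 in place of 0.32. Statements that pools overlap or not describe these levels, and the share of all genes without overlap is not given. In 3 cases a pool had no partner and dropped out of the model, which left 1 pool for the fold changes of CuO 2.5 + OVA and 2 for those of CuO COOH 2.5. Markers of alveolar epithelium, the lining of the air sacs, had an averaged level of 14.31 to 15.07 over all groups. These are bulk lung samples, in which more cells of a type and more RNA per cell cannot be told apart.

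Of the 10 members, 4 lay close together on chromosome 9, where Mmp12, Mmp10, Mmp3 and Mmp8 shared a stretch of 427 kb with 6 other family genes in the RefSeq annotation of GRCm38.p6. The 180 bases before the start of Timp1 and of 3 of these clustered genes are shown because Timp1 and Mmp8 had the 2 highest fold changes of the members at 40 μg of CuO and because Mmp3 and Mmp10, neighbours of one family branch, both hold a binding motif of AP-1, a transcription factor complex. The RefSeq windows run 5′ to 3′ in lower case, all on the plus strand, and capitals mark a match to the AP-1 letters TGANTCA. They are chrX:20869986-20870165 for Timp1, chr9:7445642-7445821 for Mmp3, chr9:7502162-7502341 for Mmp10 and chr9:7558249-7558428 for Mmp8.
Timp1: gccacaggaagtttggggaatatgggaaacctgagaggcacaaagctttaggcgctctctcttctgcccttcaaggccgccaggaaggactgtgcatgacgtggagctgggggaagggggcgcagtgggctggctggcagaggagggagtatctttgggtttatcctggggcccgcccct
Mmp3: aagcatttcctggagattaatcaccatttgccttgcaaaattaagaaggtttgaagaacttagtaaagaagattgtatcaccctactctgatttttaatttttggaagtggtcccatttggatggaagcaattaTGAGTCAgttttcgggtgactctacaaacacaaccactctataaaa
Mmp10: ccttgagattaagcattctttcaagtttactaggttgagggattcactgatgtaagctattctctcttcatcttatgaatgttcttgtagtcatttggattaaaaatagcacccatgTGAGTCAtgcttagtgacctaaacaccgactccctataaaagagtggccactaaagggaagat
Mmp8: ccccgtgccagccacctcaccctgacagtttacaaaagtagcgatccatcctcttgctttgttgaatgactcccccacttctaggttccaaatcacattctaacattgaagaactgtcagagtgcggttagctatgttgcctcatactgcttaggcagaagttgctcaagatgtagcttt

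The AP-1 match lay at bases -46 to -40 in Mmp3 and at -63 to -57 in Mmp10, counted back from the gene start. TGANTCA reads the same on both strands, and 6.75% of 32851 RefSeq promoter windows of 250 bases held it. The TATA letters TATAAA, searched on both strands and present in 12.4% of windows, stood at -7 to -2 in Mmp3 and at -29 to -24 in Mmp10. The ETS letters AGGAAG, searched on both strands and present in 29.5% of windows, matched in Timp1 at -175 to -170 and again at -99 to -94. They also matched in Mmp3 at -183 to -178 and in Mmp8 at -220 to -215, both starting before the bases shown. Timp3, Mmp12 and Mmp14 held them too. Neither Timp1 nor Mmp8 held the AP-1 letters in its window. Of the 10 members 8 had a window, with 2 starts for Mmp12, of which the downstream one held TGAGTCA at -44 to -38. Mmp2 and Mmp9 are named without a window. These matches describe letters and were set against no expression value.

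In the PBS-challenged lungs the called members rose in all but 2 cases, both of them Timp3 at 40 μg. At 40 μg CuO and CuO NH3 each had 7 of 10 members called, namely Timp1, Mmp3, Mmp8, Mmp9, Mmp10 and Mmp14 upward and Timp3 downward. CuO COOH 40 had 4 called, Timp1, Mmp3, Mmp8 and Mmp14, and CuO PEG 40 had 2, Timp1 and Mmp3. At 10 μg there were 3 for CuO, 2 for CuO COOH, 4 for CuO NH3 and 0 for CuO PEG. At 2.5 μg CuO had Timp1 and Mmp3 called, CuO NH3 had Timp1, and neither CuO COOH nor CuO PEG had any. The fold changes of all members in all exposed groups are drawn in the colour map.

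**Figure D1:**
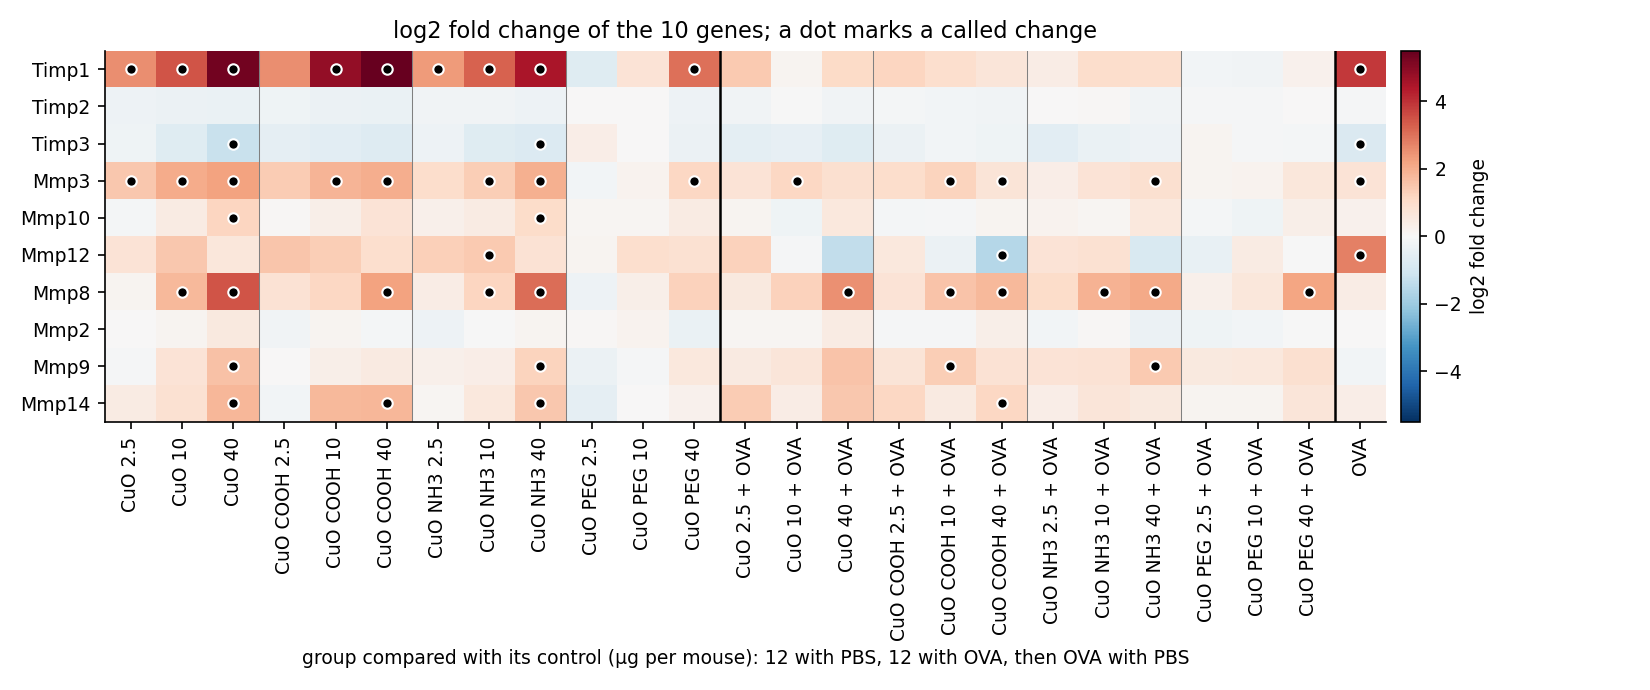
Log2 fold change of the 10 members (rows) in the 24 exposed groups against the controls of the same challenge and in OVA-challenged against PBS-challenged controls (columns), with a dot on called values. Timp1 reached 5.48 in CuO COOH 40 and stayed uncalled in every OVA-challenged exposed group, while Mmp8 was called on both sides.

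Those counts stand beside the share of all 22911 genes that was called in the same comparison, and nothing is read from them because the members were selected on such comparisons. In the PBS-challenged groups the share was 0.903%, 3.61% and 14.1% for CuO at 2.5, 10 and 40 μg. For CuO COOH it was 0.358%, 3.61% and 10.3%. For CuO NH3 it was 0.96%, 3.32% and 13.2%, and for CuO PEG 0%, 0.428% and 2.23%. In the OVA-challenged groups, in the same order of dose, the shares were lower at 40 μg for each material. They were 0%, 0.266% and 1.61% for CuO and 0.0349%, 0.663% and 3.84% for CuO COOH. They were 0.917%, 2.51% and 3.94% for CuO NH3 and 0.00436%, 0% and 0.589% for CuO PEG. In the OVA-challenged lungs CuO had 0, 1 and 1 members called with rising dose, CuO COOH 0, 3 and 4, CuO NH3 0, 1 and 3, and CuO PEG 0, 0 and 1.

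Timp1, a secreted inhibitor that blocks most metalloproteinases and also acts as a signal to cells, had the highest fold change of any member. Its level in the PBS-challenged controls ran from 9.15 to 10.71 with a median of 9.52. After CuO it was 11.60, 12.90 and 12.45 at 2.5 μg, 12.09, 12.17 and 11.88 at 10 μg, and 13.66, 14.25 and 13.91 at 40 μg. No CuO pool overlapped a control, and the 40 μg pools all lay above those of the lower doses. After CuO COOH it was 10.98, 10.25 and 11.31 at 2.5 μg, 12.92, 12.78 and 12.98 at 10 μg, and 13.95, 13.69 and 14.08 at 40 μg. After CuO NH3 it was 12.52, 11.47 and 12.15 at 2.5 μg, 12.63, 13.08, 13.09 and 12.72 at 10 μg, and 14.05, 14.02 and 14.73 at 40 μg. The 3 doses of each of these materials did not overlap each other, and the lowest dose of CuO COOH overlapped the controls. After CuO PEG it was 9.84, 9.83 and 10.06 at 2.5 μg, 10.65, 10.44, 10.51 and 10.08 at 10 μg, and 12.42, 12.35 and 12.58 at 40 μg, so that for this material the 40 μg pools alone lay above every control.

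**Figure D2:**
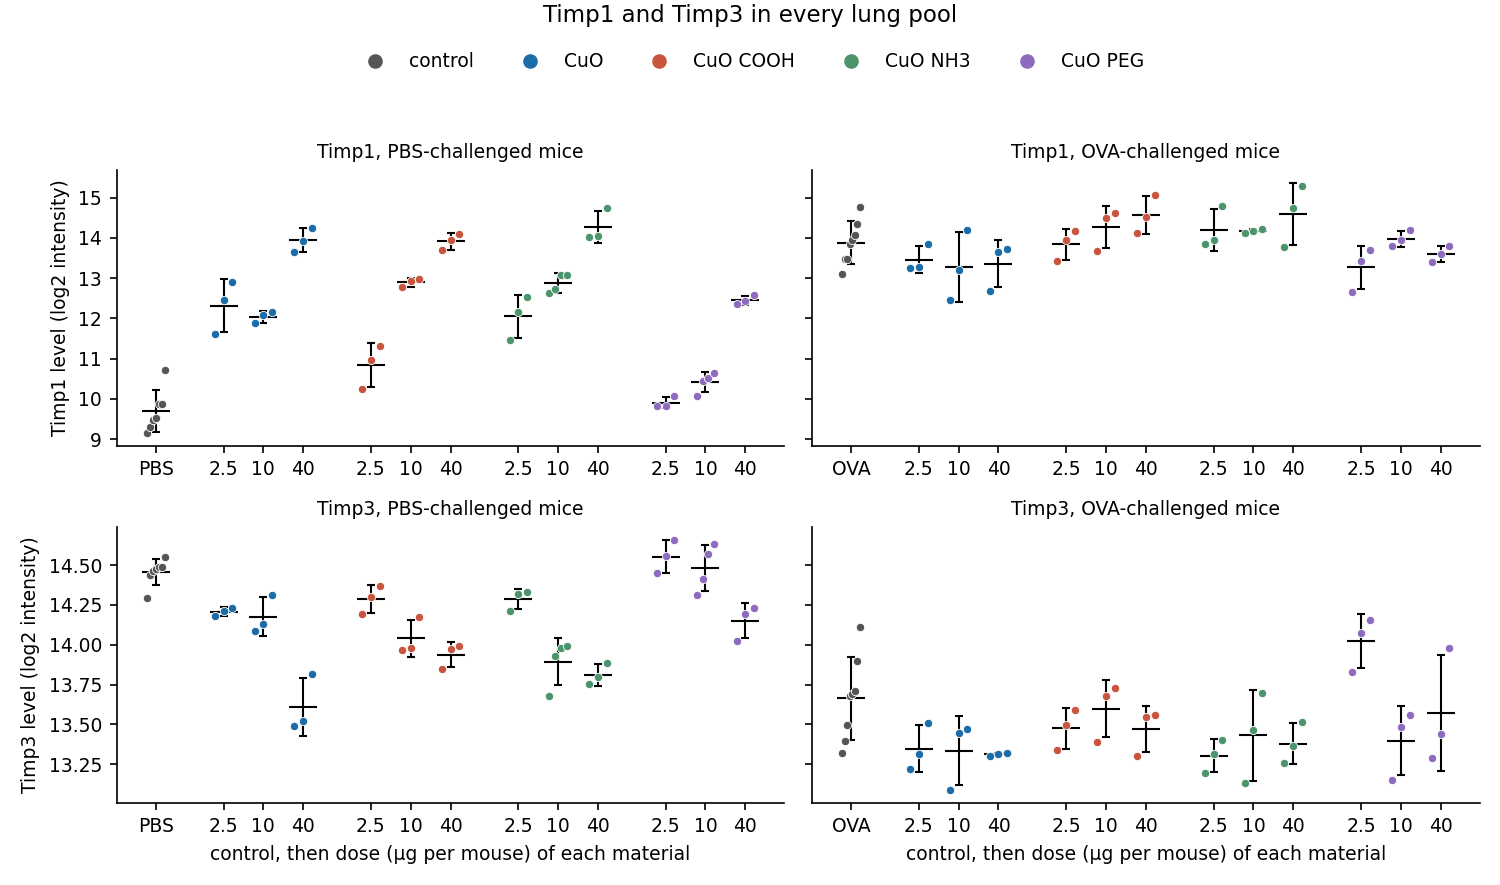
Level (normalized log2 intensity, vertical axis) of Timp1 and Timp3 in each pool (points, coloured by material) against dose in μg per mouse, with the group mean ± SD as a line and bars, PBS-challenged mice on the left and OVA-challenged mice on the right. In PBS-challenged mice every 40 μg pool had Timp1 above and Timp3 below all controls, and OVA-challenged controls had Timp1 at 13.09 to 14.76.

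The Timp1 log2 fold change against PBS-challenged controls was 5.29 ± 0.61 (SE, n = 3 against 7) for CuO 40, a 39.1-fold rise. It was 5.48 ± 0.59 for CuO COOH 40, a 44.6-fold rise, and 4.48 ± 0.43 for CuO NH3 40, a 22.3-fold rise. CuO PEG 40 gave 3.05 ± 0.51, an 8.27-fold rise. Timp1 stood among the 8 highest fold changes of all genes in each of these 4 comparisons, at rank 7, 3, 6 and 8. At lower doses the called log2 fold changes were 2.57 ± 0.54 and 3.45 ± 0.64 for CuO 2.5 and CuO 10, 4.84 ± 0.66 for CuO COOH 10, and 2.34 ± 0.51 and 3.26 ± 0.44 for CuO NH3 2.5 and CuO NH3 10. CuO COOH 2.5 gave 2.56 ± 0.66 on 2 pools and was not called. The calls for CuO 2.5, CuO COOH 10 and CuO NH3 2.5 were lost without single pools, which were PBS replicate 2, PBS replicate 3 or CuO 2.5 replicate 2 for the first, CuO COOH 10 replicate 3 for the second, and PBS replicate 2, PBS replicate 5 or CuO NH3 2.5 replicate 1 or 3 for the third. The calls at 40 μg of CuO, CuO COOH and CuO NH3 and at 10 μg of CuO NH3 stood in every alternative run. They also stood without any one pool of the groups compared, the only pools left out for a single call.

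OVA challenge alone moved Timp1 to levels between 13.09 and 14.76 with a median of 13.90 in the 8 controls, a log2 fold change of 3.87 ± 0.37 or 14.6-fold against PBS-challenged controls. All 12 exposed OVA-challenged groups overlapped the OVA-challenged controls, their log2 fold changes ran from -0.20 in CuO PEG 10 + OVA to 1.45 in CuO 2.5 + OVA, the second on 1 pool, and none was called. In CuO 40 + OVA the pools read 13.65, 13.73 and 12.68, below the middle of the control range, although the model gave 1.06 ± 0.61. In CuO NH3 40 + OVA they read 13.77, 15.30 and 14.73, which made this the group with the highest mean level, 14.60, followed by CuO COOH 40 + OVA and CuO NH3 40, all of which overlapped. The lowest mean was that of the PBS-challenged controls, 9.70, with CuO PEG 2.5 next to it and overlapping.

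Timp3, an inhibitor that stays bound to the matrix and also blocks ADAM-type proteases, went the other way. Its level was 14.29 to 14.55 in PBS-challenged controls, with a median of 14.48. CuO 40 pools read 13.49, 13.52 and 13.82 and CuO NH3 40 pools 13.75, 13.88 and 13.80, below every control. The log2 fold change was -1.21 ± 0.30 for CuO 40 and -0.77 ± 0.21 for CuO NH3 40, both called, and -0.70 ± 0.29 for CuO COOH 40, not called. The CuO 40 call was lost without CuO 40 replicate 2 or PBS replicate 3, and the CuO NH3 40 call without CuO NH3 40 replicate 1 or PBS replicate 5. OVA-challenged controls read 13.32 to 14.11 with a median of 13.68, a log2 fold change of -0.80 ± 0.18 that was called and was lost without PBS replicate 2 or OVA replicate 3. With median scaling in place of quantile normalization, none of these Timp3 calls was made.

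Timp2, which takes part in the activation of Mmp2 at the cell surface, was called in no comparison. Its log2 fold changes against controls of the same challenge ran from -0.38 to 0.06, and its group means spanned 0.26 log2 units, the narrowest span of the members. Its 2 probes moved apart in the unadjusted difference of OVA-challenged and PBS-challenged controls, at 0.46 and -0.43 on the log2 scale, so its average hides a disagreement between probes. The markers of endothelium, a cell type of the vessel wall, lay lower in the groups where Timp3 was low. Their averaged level over 6 markers was 12.93 to 13.42 in PBS-challenged controls and 12.19 to 12.36 in CuO 40, and 5 of 6 were called lower in CuO 40, CuO COOH 40 and CuO NH3 40. The part of this shift in the Timp3 values was not tested.

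Mmp3 and Mmp10, stromelysins that cut proteoglycans, laminin and fibronectin and activate other metalloproteinases, differed in how well they could be measured. Mmp3 was above background in all 89 samples and was called in 8 of 12 PBS-challenged and 4 of 12 OVA-challenged groups, always upward. Its level was 8.13 to 8.82 in PBS-challenged controls with a median of 8.42. The 40 μg pools read 9.55, 10.32 and 9.93 for CuO, 10.09, 9.62 and 10.34 for CuO COOH, 10.34, 10.21 and 10.46 for CuO NH3 and 9.50, 9.10 and 9.20 for CuO PEG, all above every control. The log2 fold changes were 2.22 ± 0.30, 2.02 ± 0.29, 1.94 ± 0.21 and 1.14 ± 0.25 in the same order. Mmp3 was also called at 10 μg of CuO, CuO COOH and CuO NH3, at 2.03 ± 0.31, 1.88 ± 0.32 and 1.37 ± 0.21, and at 2.5 μg of CuO, at 1.47 ± 0.26. The calls for CuO 2.5, CuO 40, CuO COOH 10 and CuO PEG 40 were each lost without 1 pool, CuO 2.5 replicate 3, CuO 40 replicate 2, CuO COOH 10 replicate 3 and CuO PEG 40 replicate 3. None of the 8 calls was made with median scaling, and the CuO PEG 40 call was also lost with controls of the same slides.

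In the OVA-challenged controls Mmp3 read 8.70 to 9.57 with a median of 9.22, a called log2 fold change of 0.75 ± 0.18 against PBS-challenged controls that was lost without PBS replicate 3 and whose groups overlapped. Exposure added to this in CuO 10 + OVA, with pools at 9.85, 10.36 and 9.54 and a log2 fold change of 1.14 ± 0.25, and in CuO COOH 10 + OVA, with pools at 10.35, 9.82 and 10.58 and 1.21 ± 0.20. It was also called in CuO COOH 40 + OVA at 0.69 ± 0.21 and in CuO NH3 40 + OVA at 0.86 ± 0.23. CuO 10 + OVA and CuO NH3 40 + OVA each had 1 pool inside the control range. These 4 calls were each lost without any one of several pools, 9 for CuO 10 + OVA, 3 for CuO COOH 10 + OVA, and 4 for each of the other two. Neither these calls nor the Mmp3 call between the control groups was made with median scaling.

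Mmp10 sat near background. It was well above background in 18 of 89 samples, 15 of them among the 24 samples of the 40 μg groups. In PBS-challenged controls, of which 1 of 7 was above background, it read 5.48 to 5.74, and in CuO 40 it read 6.27, 6.81 and 6.58 with 2 of 3 above background. CuO NH3 40 read 6.67, 6.58 and 6.73 with 3 of 3 above background. The log2 fold changes of 1.17 ± 0.27 and 1.01 ± 0.19 were called, each against controls of which 6 of 7 gave a reading not well above background. The first was lost without CuO 40 replicate 2 and the second without CuO NH3 40 replicate 1 or PBS replicate 5. No OVA-challenged control was above background, so exposed OVA-challenged groups give a bound, at least 1.37-fold higher for CuO NH3 40 + OVA and at least 1.24-fold for CuO 40 + OVA, where 3 and 2 of 3 pools were above background. Each bound divides the mean of the 3 exposed pools by, for each control, the higher of its own signal and the dimmest signal well above background on its array, so these are lower limits.

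**Figure D3:**
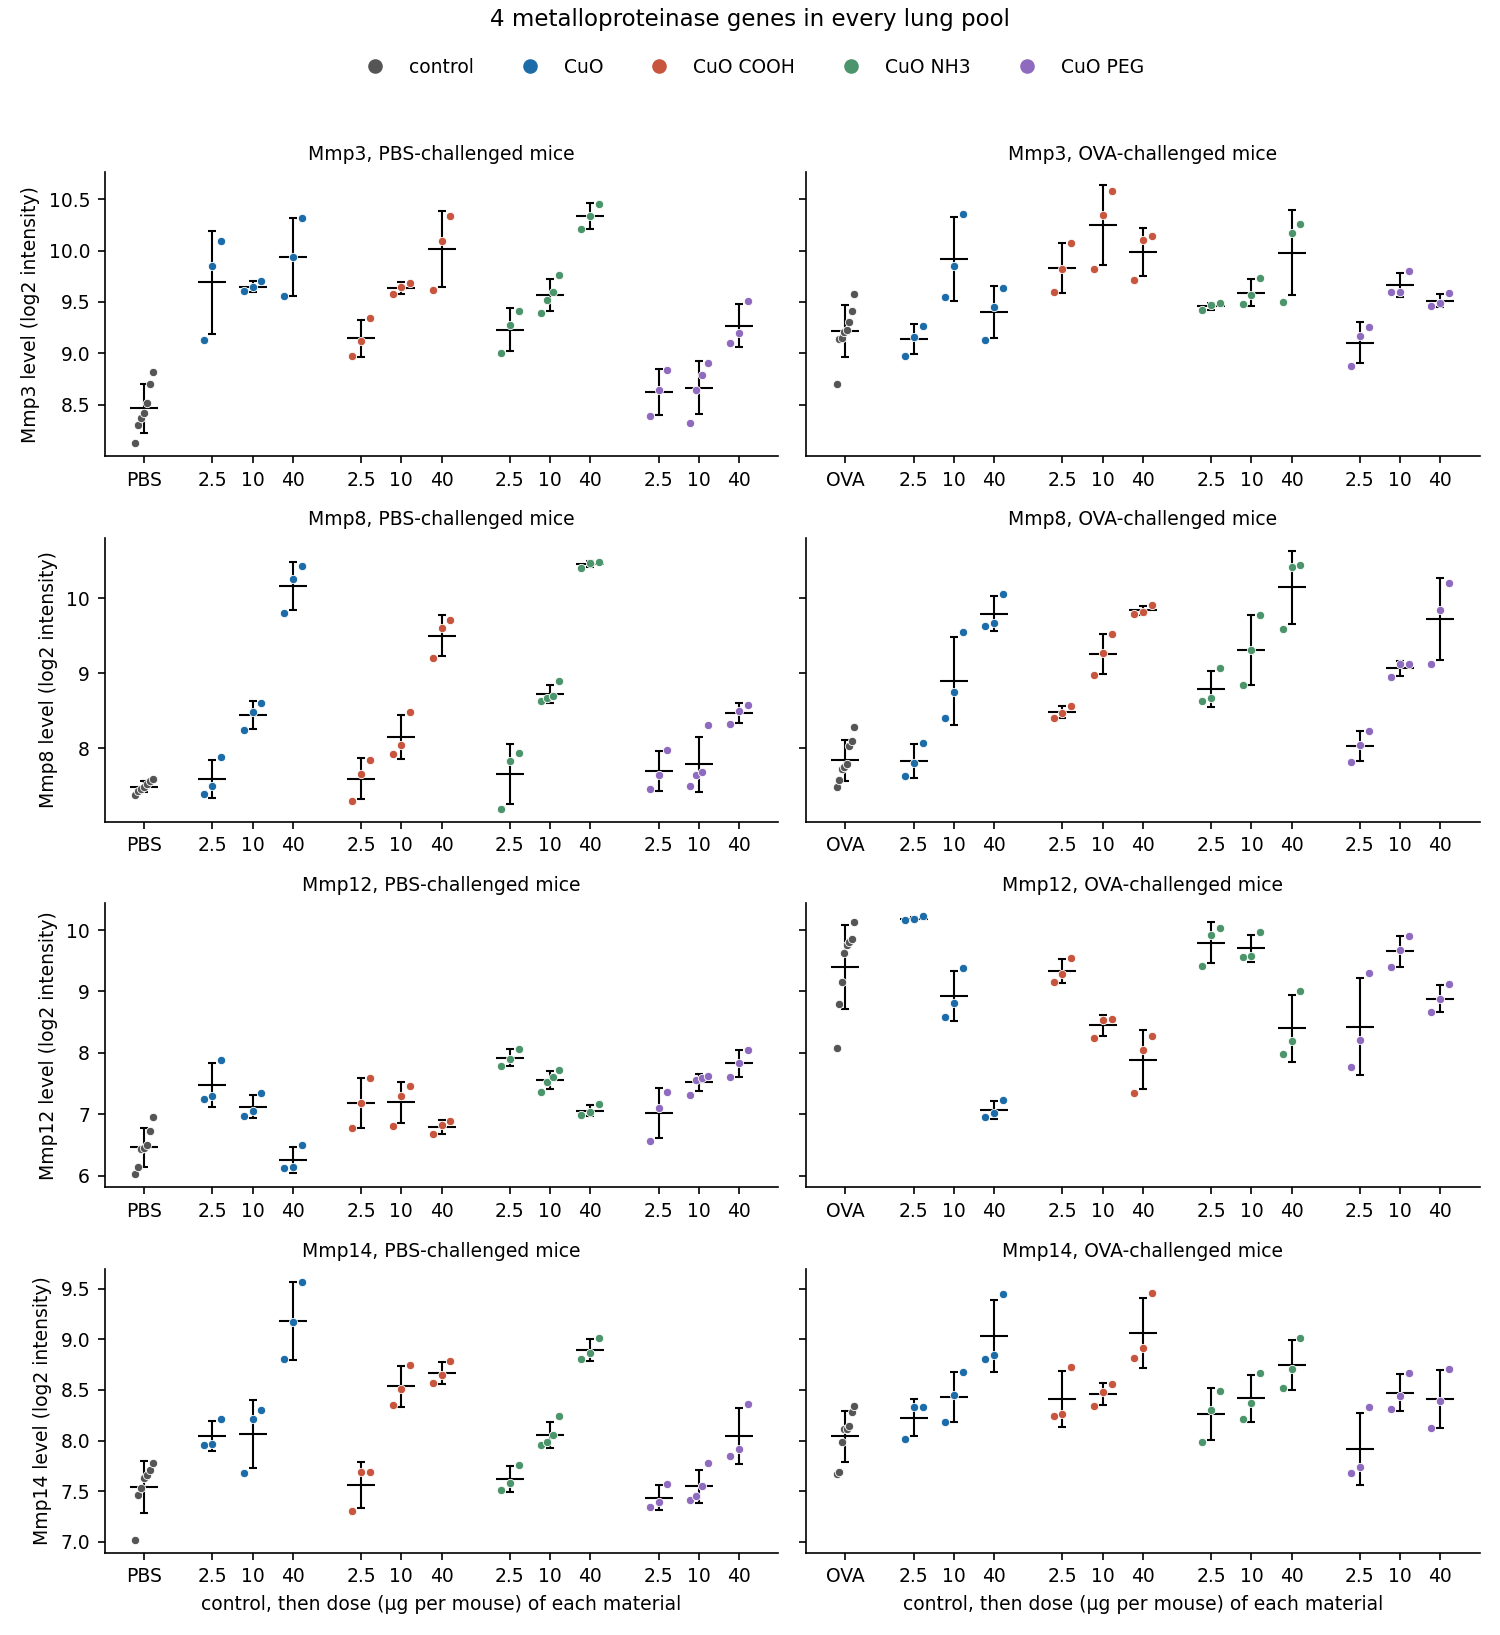
Level (normalized log2 intensity, vertical axis) of Mmp3, Mmp8, Mmp12 and Mmp14 in each pool (points, coloured by material) against dose in μg per mouse, with the group mean ± SD as a line and bars, PBS-challenged mice on the left and OVA-challenged mice on the right. For each material the mean Mmp8 level was highest at 40 μg on both challenge sides, and Mmp12 was higher in OVA-challenged than in PBS-challenged controls, with the CuO 40 + OVA pools at 6.95 to 7.24 below every OVA-challenged control.

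Mmp8, the neutrophil collagenase stored in neutrophil granules, was called upward in 5 of 12 PBS-challenged and 6 of 12 OVA-challenged groups. The PBS-challenged controls read 7.38 to 7.58 with a median of 7.48. CuO 40 pools read 9.81, 10.43 and 10.25, CuO COOH 40 pools 9.60, 9.20 and 9.70, CuO NH3 40 pools 10.41, 10.48 and 10.47, and CuO PEG 40 pools 8.58, 8.33 and 8.50. Every one of these 12 pools lay above every control. The log2 fold change was 3.45 ± 0.42 for CuO 40, 10.9-fold, with a 4.58-fold rise (SE 0.40 on the log2 scale) for CuO COOH 40, and 3.08 ± 0.30 for CuO NH3 40, 8.43-fold. CuO PEG 40 gave 1.27 ± 0.35 and was not called. At 10 μg Mmp8 was called in CuO at 1.80 ± 0.44 and in CuO NH3 at 1.18 ± 0.30, the first lost without CuO 10 replicate 2 or PBS replicate 3 and the second without CuO NH3 10 replicate 1 or 4. The CuO COOH 40 call was lost without PBS replicate 1.

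OVA challenge alone gave Mmp8 0.39 ± 0.25, not called, with controls at 7.48 to 8.27 and a median of 7.77. In OVA-challenged mice it was called upward at 40 μg of all 4 materials. CuO 40 + OVA pools read 10.06, 9.67 and 9.63, CuO COOH 40 + OVA pools 9.91, 9.82 and 9.80, CuO NH3 40 + OVA pools 9.58, 10.44 and 10.41, and CuO PEG 40 + OVA pools 9.84, 9.13 and 10.20, none of them within the control range. The log2 fold changes were 2.53 ± 0.42, 1.80 ± 0.29, 2.08 ± 0.32 and 2.17 ± 0.35 in that order, and at 10 μg they were 1.56 ± 0.29 for CuO COOH and 1.90 ± 0.32 for CuO NH3, both called. The CuO NH3 40 + OVA call stood in every alternative run and without any one pool of the groups compared. Each of the other 5 was lost without 2 or 3 different single pools, as with CuO 40 + OVA replicate 1 or 2 for CuO 40 + OVA.

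Mmp9, gelatinase B, which neutrophils and macrophages release and which cuts denatured collagen and basement membrane collagen, followed Mmp8 at smaller size. PBS-challenged controls read 7.08 to 7.44. CuO 40 pools read 7.90, 8.49 and 8.20 and CuO NH3 40 pools 8.11, 8.07 and 8.64, both above every control. The called log2 fold changes were 1.62 ± 0.42 for CuO 40, lost without CuO 40 replicate 2, and 1.22 ± 0.30 for CuO NH3 40. In OVA-challenged mice, where controls read 6.83 to 7.37, CuO COOH 10 + OVA read 8.15, 8.07 and 8.41 and CuO NH3 40 + OVA 7.65, 8.92 and 8.78, with called log2 fold changes of 1.34 ± 0.29 and 1.45 ± 0.32. The second was lost without CuO NH3 40 + OVA replicate 2 and the first without CuO COOH 10 + OVA replicate 1 or 3 or OVA replicate 2 or 3. None of the Mmp9 calls was made with median scaling. Mmp9 in CuO 40 + OVA, at 1.58 ± 0.42, was not called. Mmp2, gelatinase A, made mostly by fibroblasts, was called in no comparison, with log2 fold changes from -0.36 to 0.56. Fibroblast markers had an averaged level of 12.29 to 12.58 in PBS-challenged controls and 12.51 to 12.87 in CuO 40, where 3 of 10 were called upward and 4 downward.

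Like Mmp8 and Mmp9, markers of neutrophils had higher averaged levels at 40 μg. Their averaged level over 11 measured markers, Mmp8 and Mmp9 not among them, was 9.35 to 9.64 in PBS-challenged controls. It was 10.12 to 10.33 in CuO 40, 9.83 to 10.00 in CuO COOH 40, 10.25 to 10.66 in CuO NH3 40 and 9.67 to 9.73 in CuO PEG 40. In CuO 40 5 of the 11 were called upward and 1 downward, in CuO NH3 40 6 upward and 1 downward, in CuO COOH 40 1 upward and in CuO PEG 40 none. In OVA-challenged mice the level was 9.51 to 9.89 in controls, 10.29 to 10.61 in CuO 40 + OVA, 10.03 to 10.32 in CuO COOH 40 + OVA, 10.22 to 10.81 in CuO NH3 40 + OVA and 10.21 to 10.48 in CuO PEG 40 + OVA. In these exposed groups 3, 2, 5 and 0 of the 11 were called upward in the same order, and none downward. Of the defining markers Ly6g was not measured here and Ngp was above background in only a minority of samples. The part of this shift in the Mmp8 and Mmp9 values was not tested.

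Mmp12, the macrophage elastase, was higher in OVA-challenged than in PBS-challenged controls and lower in CuO COOH 40 + OVA than in OVA-challenged controls. PBS-challenged controls read 6.02 to 6.96 with a median of 6.46, and OVA-challenged controls 8.08 to 10.13 with a median of 9.69. That was a called log2 fold change of 2.77 ± 0.33, or 6.82-fold, without overlap. Mmp12 was well above background in 5 of 7 PBS-challenged controls and 2 of 3 CuO NH3 40 pools. Fold changes against PBS-challenged controls thus rest in part on readings near background. Its 3 probes gave unadjusted log2 differences of 3.39, 2.69 and 2.83 for this comparison. At 2.5 μg with OVA the groups differed, with CuO 2.5 + OVA pools at 10.22, 10.16 and 10.18, the highest group mean of this gene, and CuO PEG 2.5 + OVA pools at 7.77, 8.21 and 9.30, the first below every OVA-challenged control. At 40 μg with OVA the levels were 7.24, 6.95 and 7.02 for CuO, 8.05, 8.27 and 7.35 for CuO COOH, 9.01, 8.20 and 7.98 for CuO NH3 and 8.67, 9.12 and 8.87 for CuO PEG. The CuO 40 + OVA pools lay below every OVA-challenged control, whereas the other 3 groups overlapped the controls.

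The Mmp12 log2 fold change was -1.58 ± 0.38 for CuO COOH 40 + OVA, which was called and was lost without CuO COOH 40 + OVA replicate 1 or OVA replicate 1. For CuO 40 + OVA it was -1.36 ± 0.54 and was not called, although it was called with slide and position in place of arrays, with arrays as a random block and with the replicate block. CuO NH3 40 + OVA gave -0.82 ± 0.42 and CuO PEG 40 + OVA -0.03 ± 0.46, neither called. In the PBS-challenged groups all 12 log2 fold changes were above 0, from 0.17 to 1.52. In CuO 40 the fitted value of 0.63 ± 0.55 stood against pools at 6.49, 6.12 and 6.15, whose mean of 6.25 was the lowest of any group and below the 6.46 of the controls. CuO NH3 10 was called at 1.46 ± 0.39, with pools at 7.37, 7.53, 7.61 and 7.72. That call was lost without PBS replicate 2 or CuO NH3 10 replicate 1 or 4. The averaged level of 12 macrophage and monocyte markers was 9.74 to 10.04 in PBS-challenged controls and 10.58 to 10.77 in OVA-challenged controls, with 6 of 12 called upward between them. It was 10.15 to 10.28 in CuO 40 + OVA, with 2 of 12 called downward, and 10.47 to 10.69 in CuO COOH 40 + OVA, which overlapped the OVA-challenged controls and had 1 called in each direction. The median fitted log2 fold change of these markers was 0.00 in CuO 40 + OVA and -0.17 in CuO COOH 40 + OVA, and their part in the Mmp12 values was not tested.

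Mmp14, a membrane-anchored enzyme that activates Mmp2 at the cell surface and cuts fibrillar collagen, rose at 40 μg in PBS-challenged lungs. PBS-challenged controls read 7.02 to 7.78 with a median of 7.63, CuO 40 pools 9.57, 9.17 and 8.80, CuO COOH 40 pools 8.57, 8.64 and 8.79, and CuO NH3 40 pools 8.87, 9.02 and 8.81. These 9 pools lay above every control. The log2 fold changes of 1.85 ± 0.49, 1.83 ± 0.47 and 1.47 ± 0.34 were called, and the last 2 were lost without PBS replicate 1 and without CuO NH3 40 replicate 1 or PBS replicate 5. CuO PEG 40 pools at 7.85, 7.92 and 8.36 were closer to the controls. In OVA-challenged mice the gene was called in CuO COOH 40 + OVA at 1.12 ± 0.34, lost without any one of 4 pools, and in CuO 40 + OVA it was 2.84-fold higher without being called.

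OVA challenge without exposure called 4 of the 10 members, Timp1, Mmp3 and Mmp12 upward and Timp3 downward, where 5.22% of all genes were called. The Timp1 and Mmp12 calls held in every alternative and without any one pool of the control groups. Mmp8, Mmp9, Mmp10, Mmp14, Timp2 and Mmp2 had log2 differences between -0.15 and 0.39 in this comparison and were not called. Eosinophil markers, an averaged level over 6 genes, stood at 6.57 to 7.02 in PBS-challenged and 7.66 to 8.46 in OVA-challenged controls, a shift whose part in these values was not tested.

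Timp1 was the member whose response to 40 μg differed most between the challenges. The exposure effect in OVA-challenged lungs minus that in PBS-challenged lungs was called for 3 materials. It was -4.23 ± 0.68 log2 units with CuO, -4.81 ± 0.70 with CuO COOH, -3.57 ± 0.60 with CuO NH3 and, uncalled, -2.82 ± 0.72 with CuO PEG. The CuO difference was lost without CuO 40 + OVA replicate 2. Mmp3 was called for CuO at -1.33 ± 0.33, which any one of 13 pools could undo. The Mmp12 differences of -1.99 ± 0.61, -2.49 ± 0.63 and -1.63 ± 0.54 for CuO, CuO COOH and CuO NH3 and the Mmp8 differences of -0.92 ± 0.46 with CuO, -0.40 ± 0.48 with CuO COOH and 0.90 ± 0.49 with CuO PEG were not called, nor was that of CuO NH3. The number of members called was 2 for CuO, 1 for CuO COOH, 1 for CuO NH3 and 0 for CuO PEG, where 1.11%, 1.14%, 1.59% and 0% of all genes were called.

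The 3 modified materials were compared with CuO at the same dose and challenge in 18 pairs, with p-values adjusted over all genes within each pair. The paper states that doses were equal in mass of whole material and that the coated forms held less copper, CuO PEG the least. Surface and amount of copper therefore cannot be told apart in these pairs. Members were called in 4 of the 18, all of them with CuO PEG, which carries polyethylene glycol on its surface. CuO COOH and CuO NH3, which carry other groups, had 0 members called against CuO in their 12 pairs. CuO PEG 40 against CuO 40 had 5 called. Timp1 was lower by a log2 fold change of -1.49 ± 0.48, 2.81-fold, Mmp8 by -1.70 ± 0.31, 3.24-fold, and Mmp14 by -1.14 ± 0.26. Mmp10 had -0.70 ± 0.17, and since no CuO PEG 40 pool was above background the CuO 40 level was at least 1.51-fold higher. Mmp12 was higher with CuO PEG 40 by 1.57 ± 0.40, 2.98-fold, with pools at 7.60, 8.05 and 7.83 against 6.49, 6.12 and 6.15. Before dye, slide and position effects were removed, the Mmp12 group means were closer, at 7.27 and 6.66, so its size depends on that correction. None of these 5 genes had overlapping pools, which is no further support because they were called on the same pools. The share of all genes without overlap is not given here.

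Mmp12 was also higher in CuO PEG 40 + OVA than in CuO 40 + OVA by 1.82 ± 0.44, with pools at 8.67, 9.12 and 8.87 against 7.24, 6.95 and 7.02. The call was lost without any one of these 6 pools. Without the correction for dye, slide and position the group means were 8.28 and 7.29. At 2.5 μg CuO PEG had lower Timp1 by -2.41 ± 0.51 and lower Mmp3 by -1.07 ± 0.29, and at 10 μg lower Mmp3 by -0.99 ± 0.26. The Mmp3 call at 2.5 μg was lost without any one of 4 pools and with the replicate block, and that at 10 μg without any one of 5 pools. The Timp1 call at 40 μg was lost without CuO PEG 40 replicate 1 or 2 or CuO 40 replicate 2, and that of Mmp10 without CuO 40 replicate 2. CuO PEG and CuO were never on the same slide. With dye and hybridisation as terms the calls of Timp1, Mmp10, Mmp12 and Mmp14 at 40 μg were not made, nor was the Mmp12 call with OVA. The replicate block ended the calls of Mmp8, Mmp10, Mmp12 and Mmp14 at 40 μg and that of Mmp12 with OVA. Median scaling ended the Timp1 calls at 2.5 and 40 μg, both Mmp3 calls and the Mmp12 call with OVA.

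**Figure D4:**
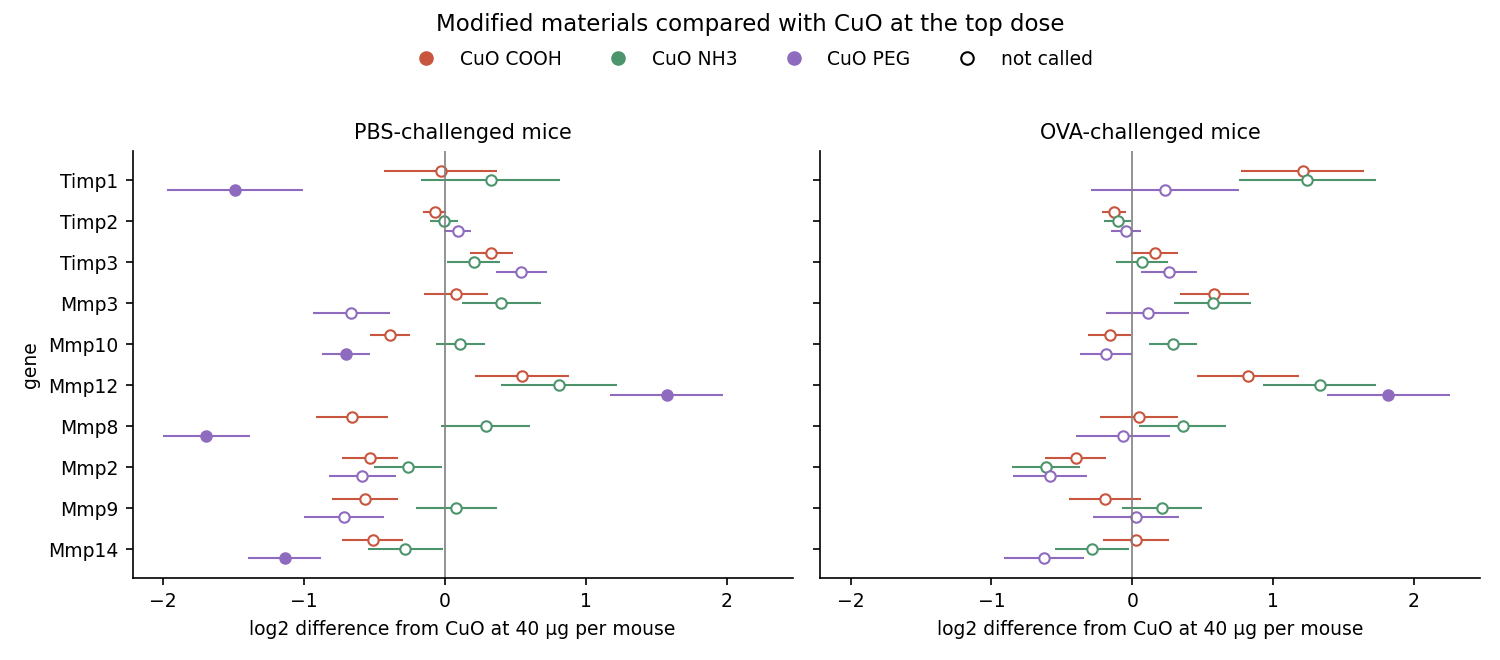
Log2 fold change of each member in CuO COOH, CuO NH3 and CuO PEG against CuO at 40 μg (horizontal axis) in PBS-challenged and OVA-challenged mice, with ± 1 SE as bars and filled points for called values. In PBS-challenged mice CuO PEG had Timp1 at -1.49, Mmp8 at -1.70 and Mmp12 at 1.57, and every CuO COOH and CuO NH3 point was open.

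A missing call does not show that materials acted alike, and the intervals give the room left. For Timp1 at 40 μg the log2 difference from CuO was -0.03 with a 95% interval of -0.82 to 0.76 for CuO COOH and 0.33 with an interval of -0.64 to 1.29 for CuO NH3. For Mmp8 it was -0.66 with an interval of -1.16 to -0.16 for CuO COOH and 0.29 with an interval of -0.33 to 0.90 for CuO NH3. In the PBS-challenged pairs the share of all genes called was 0.188%, 0% and 1.86% for CuO COOH, CuO NH3 and CuO PEG at 2.5 μg, 0.0175%, 0.161% and 1.07% at 10 μg, and 0.109%, 0.131% and 4.4% at 40 μg. In the OVA-challenged pairs it was 0%, 0% and 0.00436% at 2.5 μg, 0.00436%, 0% and 0% at 10 μg, and 0.371%, 0.415% and 0.402% at 40 μg.

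The rest of the family was tested gene by gene with limma, with p-values adjusted over all genes. This list is what remained once the members had been taken out with results known, so it is no independent sample of the family. The genes given values below were those called, mostly at their largest change at 40 μg, so their p-values belong to picked genes. Of 18 listed genes 17 were measured, and Mmp1a, Mmp1b, Mmp20, Mmp21 and Mmp24 were above background in no sample. In the 24 exposed groups 6 of the 17 were called at least once, in 21 calls of which 11 were upward and 10 downward, where 21.2% of all genes were called in at least 1 of these groups. Reck, a membrane-anchored inhibitor of several metalloproteinases, fell in 6 groups, most in CuO 40 with a log2 fold change of -1.43 ± 0.28 (limma adjusted p = 8.48e-04). Mmp19 rose in 6 groups, by 1.14 ± 0.23 in CuO 40 (limma adjusted p = 0.00113). Mmp23 rose in 3 groups, by 0.85 ± 0.16 in CuO NH3 40 (limma adjusted p = 2.67e-04), and Mmp15, a membrane-type enzyme, fell in 3, by -0.75 ± 0.20 in CuO COOH 40 (limma adjusted p = 0.0160). Mmp13, a collagenase above background in 60 of 89 samples, was called in 2 groups, upward, and Mmp11 in 1, downward. OVA challenge alone raised Mmp19 by 1.24 and Mmp13 by 1.09 (limma adjusted p = 1.11e-06 and 1.64e-05) and lowered Reck. The median log2 fold change of the 17 genes in CuO 40 was 0.20, beside 0.01 for all genes. It was 0.04 in CuO COOH 40, 0.03 in CuO NH3 40 and 0.02 in CuO PEG 40. In the OVA-challenged groups at 40 μg it ran from -0.02 with CuO to 0.05 with CuO COOH.

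Lists of related proteases and inhibitors were counted in the same way, with no test of a list as a whole. These lists too were chosen with earlier results of these data known. Genes are named because they were called, mostly at their largest change at 40 μg. The p-values here and in the next paragraph therefore belong to picked genes and comparisons and are no independent support. Of 16 genes of ADAM and ADAMTS proteases, which shed membrane proteins or cut proteoglycans, 8 were called in an exposed group, in 23 upward and 5 downward calls. Adamts4, which cuts aggrecan and versican, rose in 9 groups, by 3.22 ± 0.41 in CuO 40 (limma adjusted p = 7.25e-06). Adam8, a protease of leukocytes, rose in 7, by 2.24 ± 0.38 (limma adjusted p = 1.91e-04), and Adam33 fell by -0.81 ± 0.19 (limma adjusted p = 0.00352). Adamts15 rose by 1.68 ± 0.27 in CuO 40 and Adamts2 by 0.83 ± 0.13 in CuO NH3 40, Adamts10 fell by -1.05 ± 0.34 in CuO COOH 40, and Adamts1 and Adamts9 were each called in 1 group. Of 8 genes of plasminogen activation, a cascade that can activate metalloproteinases, 5 were called, in 23 calls that were all upward. Serpine2, a protease inhibitor, rose in 10 groups, by 1.35 ± 0.22 in CuO 40 (limma adjusted p = 1.20e-04). In CuO COOH 40 Serpinb2 and the plasminogen activators Plau and Plat rose by 1.54 ± 0.33, 0.79 ± 0.18 and 0.76 ± 0.24.

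Of 10 granule proteases and inhibitors 6 were called, in 19 upward and 6 downward calls. Serpina3n, a secreted serine protease inhibitor, rose in 8 groups, by 3.88 ± 0.43 in CuO 40 (limma adjusted p = 1.16e-06). Wfdc21 rose in 6, by 2.17 ± 0.42 in CuO COOH 40 (limma adjusted p = 0.00105). Slpi, an inhibitor of neutrophil elastase, rose by 1.19 ± 0.30 in CuO 40 (limma adjusted p = 0.00655), and Cst3, an inhibitor of cysteine proteases, fell by -1.06 ± 0.22 (limma adjusted p = 0.00140). Serpinb1a fell by -0.99 ± 0.20 in CuO 40, and A2m, above background in 6 of 89 samples, was called in 2 groups. Against CuO 40, CuO PEG 40 had lower Adamts4 and Serpina3n and higher Reck, by -1.59, -1.46 and 0.62 on the log2 scale (limma adjusted p = 3.28e-04, 0.00209 and 0.0229).

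Across the 26 group means some members followed each other, as a description in which the points share slides, controls and lung tissue. Mmp8 and Mmp9 had a Pearson r of 0.912, Mmp8 and Mmp14 0.881, Mmp8 and Mmp10 0.837, and Timp1 and Mmp14 0.816, whereas Timp1 and Timp3 had -0.857. Among 15457 genes searched, those most like Timp1 were Serpina3n with an r of 0.977 and Nusap1 and Kif22 with 0.972 each. Those most like Mmp12 were Ptgir at 0.960, Cish at 0.956 and Rgs1 at 0.955. Ambp at 0.974, Dnmt3l at 0.956 and Asprv1 at 0.955 were most like Mmp8, and Ctps at 0.909, Hirip3 at 0.881 and Lpar1 at 0.880 most like Mmp3.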

How the data were processed

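RNA of 89 lung pools, selected for an RNA integrity number above 8, was labelled with Cy3 or Cy5 and hybridised to 46 two-colour arrays on 6 slides. The authors deposited scanner intensity values per spot (Agilent Feature Extraction 12.0.2.2 per the file headers) and a table of normalized log2 values. The study's methods describe removal of labelling and array effects with ComBat and averaging per gene, and which of these steps the table includes is not given in the sources used here. The deposited table served as an alternative only. One label states the dose in another unit, and the description and the study's methods give μg.

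From the median foreground intensity of each sample's own dye, log2 values were taken without background subtraction, 3671 control spots of 62976 were dropped, and samples were quantile-normalized. Of 56605 probes 32994 matched a gene symbol through RefSeq (GRCm38.p6), and probes of a gene were averaged to give 22911 genes. 23611 probes stayed unnamed. Log2 values were fitted with limma 3.58.1 in R 4.3.3, with group, dye and array as fixed terms against controls, and with group, dye, slide and position between materials. Calls needed an adjusted p (Benjamini-Hochberg) under 0.05 together with a log2 fold change larger than 0.58 in size. An at-least fold divides the mean of a measured group by the lowest signal well above background on the other group's arrays. Signal stood at a median of 2.90 times background in Cy3 and 1.79 times in Cy5, and the number of pools limits the precision. No 2 samples held identical values, the highest correlation between any 2 being 0.998.

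The members and all gene lists were chosen with earlier results of these data known. Members are all named, and of each other list the genes called in an exposed group, ordered by largest change at 40 μg, at most 8 a list. One such gene is not reported here. Neighbours, for the 4 members with the widest range of group means, were the 3 genes with the highest Pearson r over 26 group means among genes detected in most samples. Alternatives were other terms for array and slide, a replicate block, normexp background correction, median scaling, a filter on dim probes, the deposited values, controls of the same slides, and leaving out each sample. For a single call, only pools of the groups compared were left out. The fits were tested on simulated data.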

Additional observations from a re-analysis of the deposited data

Results flagged for a closer look

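Of 40 pairs of a member and a group of 4 to 10 samples that were examined for a pool far from the others, 2 stood out, and chance gives about 1 in 20. Mmp10 in PBS replicate 3 had a level of 5.74, the highest of 7, with the nearest at 5.60. Mmp14 in PBS replicate 1 had a level of 7.02, the lowest of 7, with the nearest at 7.47, and the Mmp14 call in CuO COOH 40 was lost without that pool.

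The effect of 40 μg on Timp1 differed between the challenges by -4.23 log2 units with CuO, by -4.81 with CuO COOH and by -3.57 with CuO NH3. That of CuO on Mmp3 differed by -1.33. All 4 were called in the test of the difference itself, fitted over all genes, and since the members were selected on these comparisons they are given as values.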

How the results depend on the processing

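No called value of a member changed its sign in any alternative. Of the 32 member calls in PBS-challenged groups 10 were made in every alternative, of the 14 in OVA-challenged groups 1, of the 4 between challenge controls 2, of the 9 between materials 0, and of the 4 for the difference between challenges 0. The replicate block gave 42 member calls in PBS-challenged groups and 35 in OVA-challenged groups in place of 14. It gave 10 for the difference between challenges in place of 4, and 4 between materials in place of 9. Over all genes it called 1739 in place of 210 in CuO NH3 2.5 + OVA and 1741 in place of 0 in CuO PEG 10 + OVA. In CuO 40 it called 2604 in place of 3228. Whether replicate numbers pair the samples was not settled. In 0 of 25 comparisons did every pair correlate above 0.1, but between the challenge controls 6 of 7 pairs did, up to 0.696. Equal numbers could join pools of different slides, so this check could not decide. Slide and position in place of array gave 26 calls in OVA-challenged groups and 10 for the difference. Array as a random block gave 28 and 12. Over all genes these settings called 773 and 932 in CuO 40 + OVA in place of 370. For the difference with CuO they called 1239 and 1153 in place of 255. Dye and hybridisation as terms gave 4 between materials, with 475 of all genes called in CuO PEG 40 against CuO 40 in place of 1009. Median scaling ended 46 member calls. It gave 10, 1, 2, 0 and 4 for PBS-challenged groups, OVA-challenged groups, challenge controls, difference and materials, and 0 in place of 21 for the other family genes. Over all genes it called 305 in place of 3228 in CuO 40 and 3 in place of 370 in CuO 40 + OVA. Between challenge controls it called 239 in place of 1197, and for the difference with CuO 0 in place of 255. Calls were thus lost over all genes as well as among the members. Why these counts moved was not tested. Leaving out 1 sample at a time gave 26 to 38, 9 to 17, 3 to 4, 3 to 6 and 7 to 12 in the same order, and 15 to 29 for the other family genes. The PBS-challenged count was lowest without CuO 40 replicate 2 or CuO COOH 10 + OVA replicate 2, the second a pool outside the groups compared. The OVA-challenged count was lowest without CuO COOH 40 + OVA replicate 1 or OVA replicate 1. Controls of the same slides ended 7 calls and were not run between materials. There the controls, present on both sets of slides, link CuO NH3 and CuO PEG to CuO. CuO 2.5 + OVA could not be fitted without replicate 2. The uncalled Timp1 values in OVA-challenged groups turned sign in several groups when array was not a fixed term. Signal near background limits Mmp10 and, in PBS-challenged controls, Mmp12.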
